A study of Mus musculus with 9 samples.

Results

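MiR-199a, miR-199b and miR-214 are microRNAs (miRNAs) that are typically expressed in fibroblasts and other mesenchymal cells. Their members were taken as all miRNAs of the deposited table whose names start with miR-199a-, miR-199b- or miR-214-, which gave 6 of 1251 miRNAs, namely miR-199a-5p, miR-199a-3p, miR-199b-5p, miR-199b-3p, miR-214-5p and miR-214-3p. MiR-199a-3p and miR-199b-3p have the same sequence and the same value in all 9 libraries, so that the 6 names hold 5 different profiles, and both are described as miR-199a-3p below. In white adipose tissue (WAT), 4 of the 5 profiles were higher than in brown adipose tissue (BAT), with log2 fold changes between 1.86 and 3.03, where 37.3% of the tested miRNAs were higher, while miR-214-3p, the main arm of the miR-214 hairpin, had mean log2 levels between 10.43 and 10.61 in the 3 depots.

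Small RNA was sequenced from interscapular BAT, inguinal subcutaneous adipose tissue (SAT) and epididymal visceral adipose tissue (VAT), with 3 libraries per depot and 9 in all. All came from male C57BL/6J mice with no genetic change named, aged 5 to 6 weeks per the labels (the methods place an acclimation before the diet), that received for 11 weeks a high fat diet (HFD) with 45% of energy from fat, 20% from protein and 35% from carbohydrate, and fasted for 4 hours before the tissues were taken. No library of a control diet is part of these data, and the samples are whole tissue, so that fewer cells of a type and less RNA per cell cannot be told apart. The libraries are named by depot and by the number in their titles (BAT 12, 15 and 20, SAT 14, 19 and 20, VAT 14, 17 and 20), and no source used here says that a number is a mouse.

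A miRNA hairpin yields a 5p and a 3p arm, of which one is usually loaded into Argonaute and kept while the other is mostly degraded. The loaded arm finds its target mRNAs mainly through its seed, bases 2 to 8. Mir199a-2 and Mir214 are carried by a single long non-coding transcript, Dnm3os, which runs antisense to the dynamin gene Dnm3 and is activated by the mesenchymal transcription factor Twist1. MiR-199a-5p and miR-214 are known for roles in fibrosis and in skeletal and cardiac development, and miR-214 has been described as a repressor of Xbp1, a gene of the endoplasmic reticulum stress response that the study examined.

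Mature sequences from RefSeq (GRCm38.p6) are shown because they define which members can be told apart and which targets they share. Of the 6 members, 5 matched an entry. MiR-199b-5p did not, so that its seed was not compared. Capitals mark the seed.
miR-199a-3p: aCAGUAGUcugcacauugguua
miR-199b-3p: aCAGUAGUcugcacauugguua
miR-199a-5p: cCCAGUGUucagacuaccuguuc
miR-214-3p: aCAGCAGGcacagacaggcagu
miR-214-5p: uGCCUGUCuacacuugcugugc
Among the members with an entry, the arms of one hairpin have different seeds, and no seed is common to miR-199 and miR-214. The only other mature miRNA of the RefSeq table with the seed of a listed member was miR-761. It has that of miR-214-3p and did not exceed the lowest value of the deposited table in any library.
miR-761: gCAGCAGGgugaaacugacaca

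The hairpins show where the arms come from. Capitals mark the mature arms listed by RefSeq. For Mir199b no 5p arm is listed, but its 5p side holds ccagugu, the bases of the miR-199a-5p seed.
Mir199a-2: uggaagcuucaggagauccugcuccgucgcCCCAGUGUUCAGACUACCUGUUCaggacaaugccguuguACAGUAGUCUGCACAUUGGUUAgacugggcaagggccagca
Mir214: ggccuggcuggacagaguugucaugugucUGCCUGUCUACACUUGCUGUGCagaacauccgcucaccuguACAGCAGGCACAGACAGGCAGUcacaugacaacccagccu
Mir199a-1: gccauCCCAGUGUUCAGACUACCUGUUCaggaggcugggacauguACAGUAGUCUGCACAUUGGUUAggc
Mir199b: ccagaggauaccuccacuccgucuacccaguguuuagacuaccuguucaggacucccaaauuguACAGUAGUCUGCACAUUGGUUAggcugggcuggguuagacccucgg
Mir199a-2 (chr1:162217814-162217923, plus strand) and Mir214 (chr1:162223368-162223477, plus strand) are 5444 bases apart. Both lie within exons of Dnm3os (chr1:162217623-162225550, plus strand, GENCODE M21 on GRCm38), on the opposite strand of an intron of Dnm3. Mir199a-1 (chr9:21496495-21496564, minus strand) is antisense to an intron of Dnm2, and Mir199b (chr2:32318460-32318569, plus strand) to an intron of Dnm1. The mature arms of Mir199a-1 and Mir199a-2 are identical, so that miR-199a-5p can come from 2 loci and miR-199a-3p, together with miR-199b-3p, from 3. The locus of origin of these arms cannot be read from the values, whereas miR-214-3p, miR-214-5p and miR-199b-5p each belong to a single precursor.

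All 6 members were above the lowest value of the table in all 9 libraries. The deposited values are log2 normalized counts with 3.32, the log2 of 10, as the lowest value, and the depth of the libraries is unknown because the table holds no read counts. The number of miRNAs above the lowest value was 255 to 273 in BAT libraries, 240 to 285 in SAT and 323 to 349 in VAT. The cause of the higher number in VAT was not tested. The sets of 3 libraries give the spread against which changes were tested, and p values cover no other source of variation. For the spread of a miRNA the main fits also use that of the other tested miRNAs. Tests of WAT against BAT treat the 6 WAT libraries as independent, which the labels do not show. Brown adipocyte miRNAs were set beside the depot labels, but their list was chosen with earlier results of these data known and is no independent check. All 7 examined were lower in WAT than in BAT at an adjusted p under 0.05, as were 26.8% of the tested miRNAs. With VAT or SAT alone against BAT, 6 of the 7 passed and miR-365-3p did not. In all WAT libraries miR-365-1-5p was at the lowest value and could not be called higher. Single libraries stood apart in markers of other tissues. MiR-133a-3p, a miRNA of striated muscle, had log2 levels of 17.20 in BAT 15, 18.67 in BAT 20 and 17.20 in VAT 20, against 9.85 to 12.59 in the other 6 libraries. The epithelial miR-205-5p had 14.31 in SAT 14 and 10.02 in VAT 20, against 3.32 to 6.48 elsewhere. The leukocyte miRNA miR-142-5p had 11.88 in SAT 20, against 7.85 and 7.87 in the other SAT libraries.

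MiR-199a-3p was the most abundant member in WAT. Its log2 levels were 9.58, 10.10 and 10.41 in BAT 12, 15 and 20. In SAT 14, 19 and 20 they were 12.37, 12.30 and 12.04. In VAT 14, 17 and 20 they were 13.25, 12.94 and 13.36. The 3 depots did not overlap, and the order was BAT, SAT, VAT. By rank among the 1251 miRNAs of a library, it was between 83 and 99 in BAT, between 47 and 52 in SAT and between 35 and 39 in VAT.

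MiR-199a-5p, the other arm of the miR-199a hairpins, was lower than the 3p arm in every library. Its log2 levels were 6.56, 7.97 and 7.27 in the BAT libraries. The SAT libraries had 10.05, 10.18 and 10.34, and the VAT libraries 10.61, 10.23 and 10.38. Every WAT library was above every BAT library, whereas SAT and VAT overlapped. The spread was largest in BAT, with an SD of 0.71 against 0.15 in SAT and 0.19 in VAT (n = 3 each).

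MiR-199b-5p is the member that belongs to the Mir199b locus alone. Whether its value also holds reads of miR-199a-5p was not tested. Log2 levels of 5.60, 5.32 and 4.91 were found in brown fat. SAT libraries had 6.995, 7.85 and 7.50, and VAT libraries 7.26, 7.97 and 7.71. As for miR-199a-5p, WAT was above BAT without overlap and SAT and VAT overlapped. The BAT values were 48.4, 39.8 and 30.0 when unlogged and thus close to the lowest value of 10.

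MiR-214-5p, the minor arm of the Mir214 hairpin, had log2 levels of 4.92, 5.61 and 4.91 in brown fat. SAT libraries had 6.995, 6.85 and 6.08, while 7.60, 7.49 and 7.02 were found for VAT. The depots did not overlap, although SAT 14 and VAT 20 were only slightly apart. Unlogged, the BAT values were 30.2, 48.9 and 30.0 and thus close to the lowest value of 10.

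MiR-214-3p showed no such order. Its log2 levels were 10.54, 10.53 and 10.56 in brown fat. SAT libraries had 10.43, 10.82 and 10.56, and those of VAT 10.79, 10.58 and 9.93. The BAT libraries lay inside the range of both WAT depots, and VAT 20 was the lowest of the 9 libraries. In BAT miR-214-3p had a mean log2 level of 10.54 ± 0.02 (SD, n = 3) against 10.03 ± 0.42 for miR-199a-3p. Since reads with several matches were split, the miR-199a-3p value may hold only part of the reads of its sequence. In VAT miR-214-3p was close to miR-199a-5p, with 10.43 ± 0.45 and 10.41 ± 0.19 (SD, n = 3), which differed by less than the spread. MiR-199b-5p and miR-214-5p were the lowest members in each depot. They were within the spread of each other at 5.27 ± 0.35 and 5.15 ± 0.40 for BAT libraries and 7.65 ± 0.36 and 7.37 ± 0.31 for VAT libraries (SD, n = 3). For SAT libraries they were further apart, at 7.45 ± 0.43 and 6.64 ± 0.49 (SD, n = 3), and this difference was not tested.

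**Figure D1:**
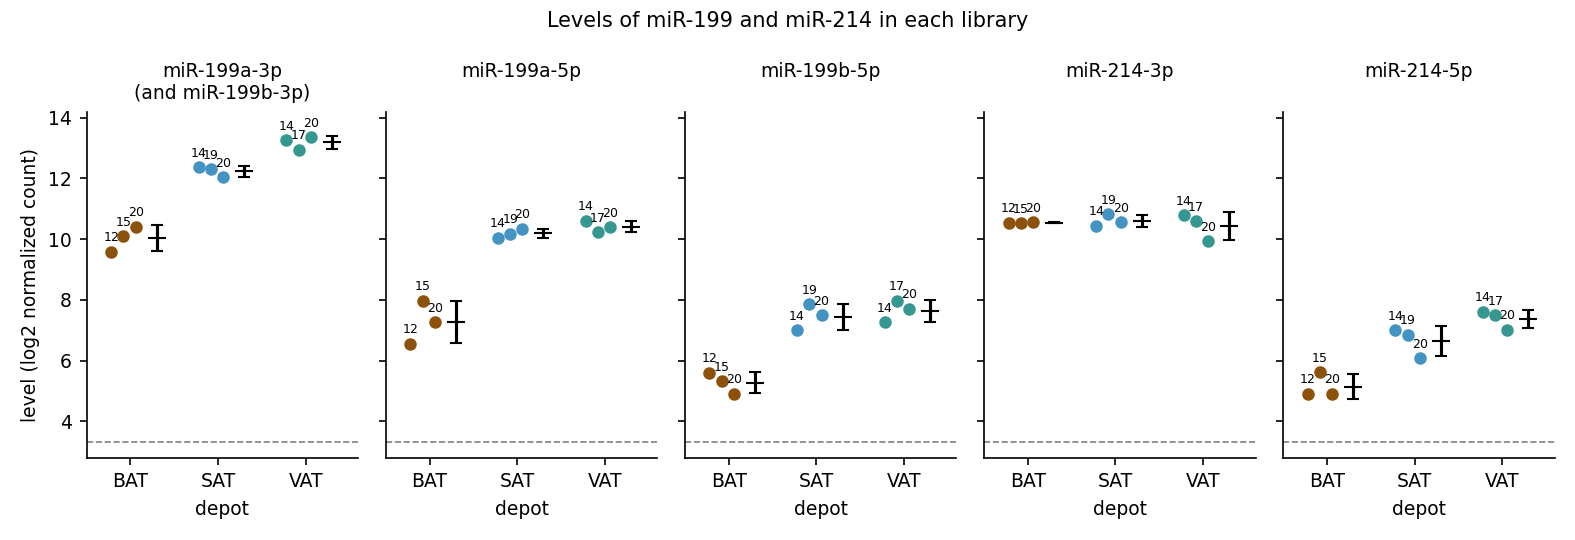
Log2 normalized count of each member (y axis) in the libraries of each depot (x axis). Points are libraries with their number, the bar beside them is the mean ± SD of 3 libraries and the dashed line is the lowest value of the table. MiR-214-3p stays between 9.93 and 10.82, while the WAT libraries of the other members are all above the BAT libraries.

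The VAT/BAT comparison asked how visceral differs from brown fat, with BAT as the reference. Higher in VAT were 4 profiles. The log2 fold change was 3.15 for miR-199a-3p (standard error 0.29, adjusted p = 0.000316), 3.14 for miR-199a-5p (standard error 0.39, adjusted p = 0.000819), 2.38 for miR-199b-5p (standard error 0.30, adjusted p = 0.000865) and 2.22 for miR-214-5p (standard error 0.30, adjusted p = 0.00123). On the linear scale these were 8.89-, 8.80-, 5.19- and 4.67-fold. For miR-214-3p the log2 fold change was -0.11 (95% interval -0.80 to 0.58, adjusted p = 0.749). Of the 343 tested miRNAs, 39.4% were higher in VAT at an adjusted p under 0.05, 26.8% were lower, and 44.3% were higher without overlap between the libraries, so that 4 of 5 profiles have to be read against a depot contrast that is broad. By the size of the change, miR-199a-3p and miR-199a-5p ranked 65 and 67 of 343 and miR-214-3p 333.

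In SAT/BAT the same 4 profiles were higher in SAT, where 22.4% of the tested miRNAs were higher by the test and 31.5% without overlap. This comparison shares the BAT libraries with VAT/BAT, and its values stand beside those above rather than as separate evidence. MiR-199a-5p had the largest log2 fold change, 2.92 (standard error 0.39, adjusted p = 0.00463), followed by miR-199a-3p with 2.20 (standard error 0.25, adjusted p = 0.00298) and miR-199b-5p with 2.18 (standard error 0.30, adjusted p = 0.00509). MiR-214-5p rose by 1.50 (standard error 0.34, adjusted p = 0.0237), or 2.82-fold. Its call was lost without BAT 12, BAT 20, SAT 14 or SAT 19, with adjusted p between 0.0686 and 0.0804 and log2 fold changes between 1.32 and 1.39. It was also lost relative to miR-191-5p and without a filter on low values. The log2 value of miR-214-3p was 0.06 (95% interval -0.26 to 0.39, adjusted p = 0.726).

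Between the white depots 1 of the 5 profiles passed the test. In VAT/SAT miR-199a-3p was higher in VAT by 0.95 on the log2 scale (standard error 0.16, adjusted p = 0.0276), or 1.93-fold, with no overlap, where 8.45% of the tested miRNAs were higher at this threshold. The call is at the edge of the threshold, because adjusted p was between 0.0504 and 0.170 in 11 of the 17 alternatives, among them those without SAT 19, SAT 20, VAT 14 or VAT 20, while the log2 fold change stayed between 0.85 and 1.12 in all 17. For miR-214-5p the log2 fold change was 0.73 (95% interval -0.07 to 1.53, adjusted p = 0.170), without overlap between the libraries, as 22.4% of the tested miRNAs had in this direction. The other values were 0.22 for miR-199a-5p (95% interval -0.15 to 0.59, adjusted p = 0.348), 0.20 for miR-199b-5p (-0.57 to 0.97, adjusted p = 0.692) and -0.17 for miR-214-3p (-0.85 to 0.51, adjusted p = 0.692). None of these 3 was past the threshold, and their intervals still allow changes of up to about 1 on the log2 scale.

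**Figure D2:**
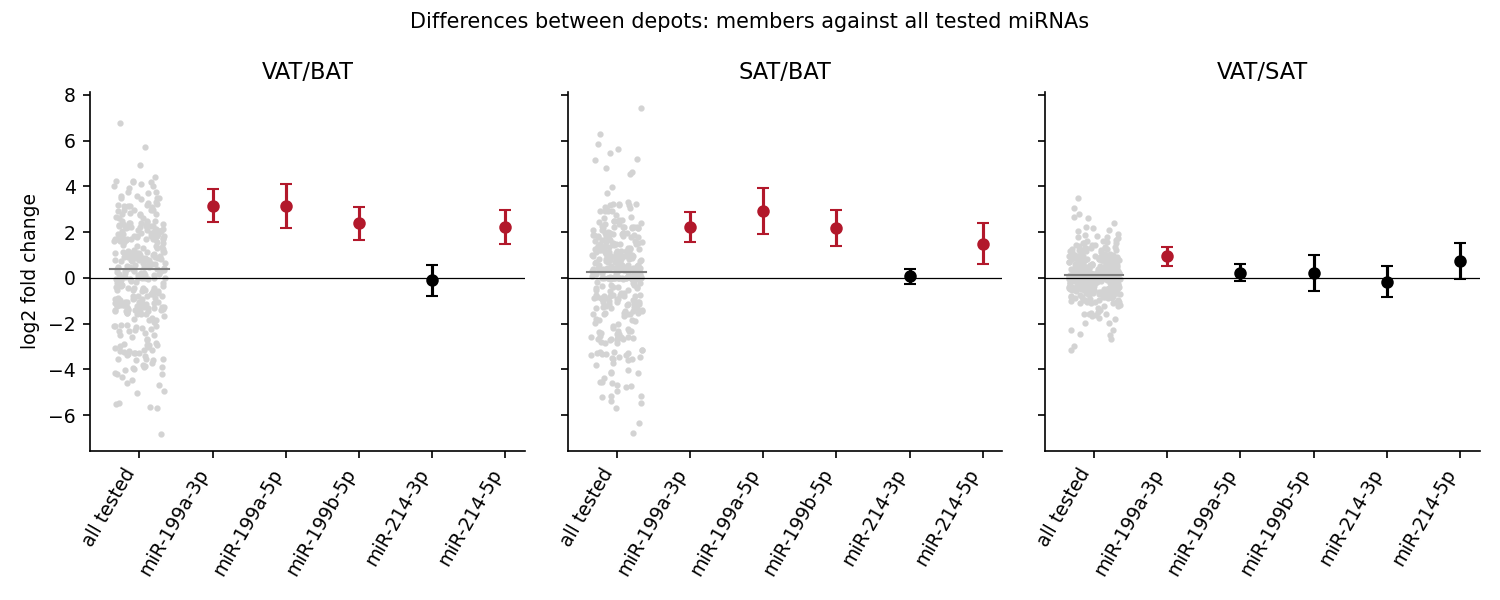
Log2 fold change (y axis) in VAT/BAT, SAT/BAT and VAT/SAT for the 5 member profiles, with bars for the 95% interval of limma, red for an adjusted p under 0.05 and black for others. Grey points are the 343 tested miRNAs, with their median as a line. In both comparisons with BAT, miR-214-3p lies at -0.11 and 0.06 while the other members lie at 1.50 or above.

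When both white depots were taken as WAT and fitted with BAT over 9 libraries, the log2 fold change in WAT/BAT was 3.03 for miR-199a-5p (standard error 0.30, adjusted p = 5.67e-05), 2.68 for miR-199a-3p (standard error 0.23, adjusted p = 2.78e-05), 2.28 for miR-199b-5p (standard error 0.28, adjusted p = 0.000164) and 1.86 for miR-214-5p (standard error 0.29, adjusted p = 0.000719). The median over the 343 tested miRNAs was 0.33, 37.3% were higher in WAT at an adjusted p under 0.05, and 28.0% were higher without overlap. For miR-214-3p it was -0.02 (95% interval -0.55 to 0.51, adjusted p = 0.936), and only 3 of the 343 miRNAs had a smaller change. The 4 calls of the other profiles remained when BAT 15, BAT 20 and VAT 20, the libraries with the high miR-133a-3p, were left out together, an alternative chosen after the values were seen. The log2 fold changes were then 3.74, 3.08, 1.94 and 2.18 in the same order (adjusted p between 0.00113 and 0.0343), with BAT 12 as the sole BAT library, which is assumed to vary like the other depots.

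Since miR-214-3p and miR-214-5p are cut from one hairpin, their difference within a library was compared between the depots. MiR-214-3p exceeded miR-214-5p by 5.62, 4.91 and 5.65 on the log2 scale in brown fat. This was 3.44, 3.98 and 4.48 for SAT and 3.18, 3.10 and 2.91 for VAT. Thus the smallest difference in BAT was above the largest in WAT. As a ratio of the arms this was 42.1 in BAT and 11.4 in WAT on average (geometric means). These ratios are of values that include the lowest value of 10, to which miR-214-5p is close in BAT. The difference in WAT was 1.88 lower than in BAT (3.51 ± 0.60, SD, n = 6, against 5.40 ± 0.42, SD, n = 3, exact permutation test, two-sided p = 0.0238, adjusted p = 0.0357 over 3 such differences). This p is the smallest that 84 assignments of the libraries allow. With the lowest value subtracted and 1 added, WAT minus BAT was -2.21. In a limma fit over the 83 pairs of arms in which both arms were tested, which was added after the values were seen, the change was -1.88 (standard error 0.36, adjusted p = 0.00170). By depot it was -2.33 in VAT/BAT (adjusted p = 0.00297) and -1.43 in SAT/BAT, which did not pass (adjusted p = 0.0607). The WAT/BAT change ranked 29 of 83 by size, and 48.2% of the pairs changed between WAT and BAT in one direction or the other. A change of this size between arms was therefore common in this contrast. Of the arms themselves, miR-214-5p was 1.86 higher in WAT and miR-214-3p had -0.02.

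For miR-199a the same difference between arms did not pass the test. MiR-199a-3p exceeded miR-199a-5p by 3.02, 2.13 and 3.14 on the log2 scale in brown fat, by 2.32, 2.12 and 1.69 in SAT and by 2.64, 2.71 and 2.98 in VAT, so that the depots overlapped. WAT minus BAT was -0.35 (exact permutation test, two-sided p = 0.333, adjusted p = 0.333, n = 6 and 3). In the limma fit over pairs of arms its 95% interval was -1.14 to 0.44, and the change ranked 68 of 83.

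MiR-199a-3p and miR-214-3p, the higher arms of the 2 hairpins that Dnm3os carries, were then compared in the same way. MiR-199a-3p minus miR-214-3p was -0.96, -0.42 and -0.15 on the log2 scale in brown fat. In SAT it was 1.93, 1.47 and 1.48, and in VAT 2.46, 2.36 and 3.43. The row of miR-199a-3p was thus below that of miR-214-3p in the 3 BAT libraries and above it in the 6 WAT libraries. That order depends on how shared reads were split, which was not checked. An alternative, chosen after the values were seen, added the rows of miR-199a-3p and miR-199b-3p as if they shared the reads. The BAT differences were then 0.04, 0.58 and 0.85. On that basis miR-199-3p was about level with miR-214-3p in BAT 12 and above it in BAT 15 and BAT 20. WAT was 2.70 above BAT (2.19 ± 0.74, SD, n = 6, against -0.51 ± 0.41, SD, n = 3, exact permutation test, two-sided p = 0.0238, adjusted p = 0.0357). Adding the rows could not change this value, because they are equal in every library. In WAT/BAT miR-199a-3p alone had 2.68 and miR-214-3p -0.02, so that this difference mostly repeats the change of miR-199a-3p. No background over other pairs of miRNAs was made for it. The miR-199a-3p value also holds the products of Mir199a-1 and Mir199b, and their share in it was not measured.

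**Figure D3:**
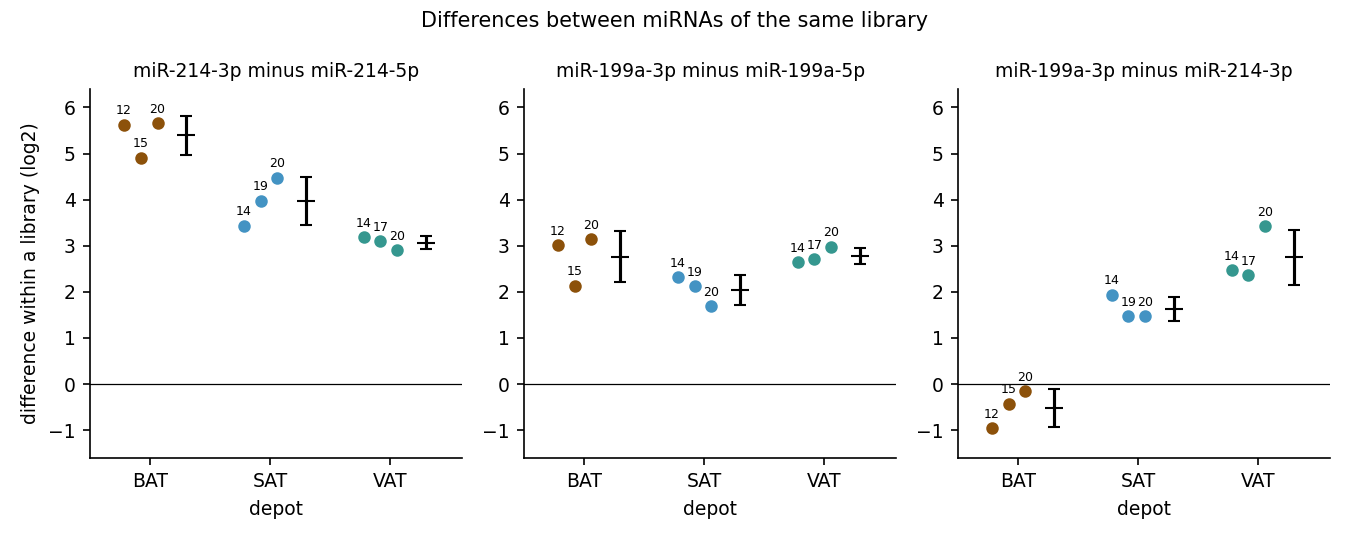
Difference between 2 miRNAs of the same library on the log2 scale (y axis) by depot (x axis). Points are libraries with their number and the bars are the mean ± SD of 3 libraries. The gap between the arms of miR-214 is wider in BAT (4.91 to 5.65) than in WAT (2.91 to 4.48), and the miR-199a-3p row, which may hold part of the reads of its sequence, lies below miR-214-3p only in BAT.

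Other miRNAs associated with fibroblasts and mesenchymal cells were examined as a list of 12, all of them tested. In WAT/BAT 8 were higher in WAT, none was lower and 4 did not pass, with a median log2 fold change of 1.25 against 0.33 over all tested miRNAs, of which 37.3% were higher. Among the 8, miR-152-3p and miR-218-5p were at the lowest value in all BAT libraries and could not be called lower in WAT. Those higher included miR-143-3p, known from smooth muscle and stroma, at 2.26 (adjusted p = 3.02e-05), miR-10b-5p, a miRNA of the Hox clusters, at 2.59 (adjusted p = 0.000345), and miR-22-3p at 1.08 (adjusted p = 0.00126). In SAT/BAT miR-22-3p had 0.26 (adjusted p = 0.280) and did not pass. Its log2 level in all VAT libraries was 18.67, the highest value of the table. MiR-127-3p, from the imprinted Dlk1-Dio3 region, had 0.18 (adjusted p = 0.622). In VAT/BAT 8 of the 12 were higher, against 39.4% of all tested miRNAs, and in SAT/BAT 5, against 22.4%, and in VAT/SAT only miR-22-3p passed, higher in VAT by 1.64 on the log2 scale (adjusted p = 0.0144). MiR-145a-5p, whose precursor lies beside that of miR-143-3p, had 0.46 in WAT/BAT (adjusted p = 0.183), so that miR-214-3p was not alone among such miRNAs in showing no change past the threshold.

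Among 10 miRNAs related to fibrosis, 9 were tested, of which 4 were higher and 2 lower in WAT than in BAT, with a median log2 fold change of 1.10. These counts are near the background of 37.3% higher and 26.8% lower. Among those higher, miR-29b-3p was at the lowest value in all BAT libraries and could not be called lower in WAT. MiR-21a-5p, a miRNA induced in fibrotic tissue and also on the list above, rose by 3.66 (adjusted p = 6.00e-05), and miR-29a-3p, which targets collagen mRNAs, had 0.34 (adjusted p = 0.256). MiR-192-5p was lower by -1.91 (adjusted p = 0.0143) and miR-132-3p had 0.83 (adjusted p = 0.0518).

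**Figure D4:**
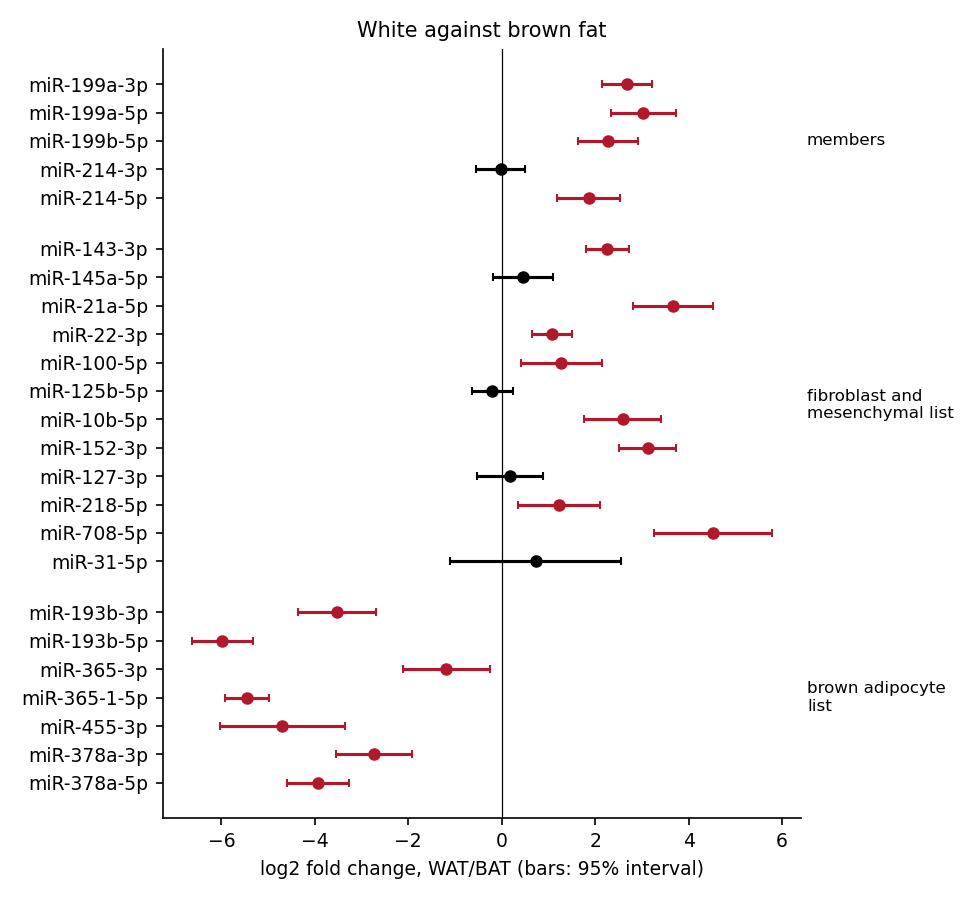
Log2 fold change in WAT/BAT (x axis) of the member profiles, of the 12 other fibroblast and mesenchymal miRNAs and of 7 brown adipocyte miRNAs. Bars are the 95% interval, red marks an adjusted p under 0.05. Of the 12, 8 lie above 0 past the threshold, all 7 brown adipocyte miRNAs lie below 0, and miR-214-3p lies at -0.02.

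Some markers of other cell types moved with the members between the depots. Of 8 tested macrophage and leukocyte miRNAs, 6 were higher in WAT than in BAT and none lower (median log2 fold change 1.44), and in VAT/BAT 7 were higher and 1 lower, but in SAT/BAT 1 was higher and 7 did not pass. Over all tested miRNAs 37.3%, 39.4% and 22.4% were higher in these comparisons. Both endothelial miRNAs, miR-126-3p and miR-126-5p, and both tested red cell miRNAs were higher in WAT, as were 3 of 5 miRNAs of white depots. In SAT/BAT neither red cell miRNA passed, and in VAT/BAT both did. Several of these miRNAs were at the lowest value in all BAT libraries and could not be called lower in WAT. They were miR-142-3p, miR-223-3p, miR-511-3p, miR-511-5p, miR-144-5p and miR-196a-5p. Of them, miR-144-5p and miR-511-3p were at the lowest value in all SAT libraries too, and passed the filter only through VAT. Of the striated muscle list 3 of 7 were tested, of which 1 was lower in WAT, and of the epithelial list 2 of 6, neither of which passed. The summed level of the macrophage and leukocyte list above the lowest value was 20932 to 28576 for BAT, 14889 to 116367 for SAT and 11106 to 24361 for VAT, a sum led by miR-150-5p. MiR-223-3p, a defining miRNA of myeloid cells, did not exceed the table's lowest value in brown fat and had a mean log2 level of 9.16 in SAT and 10.08 in VAT. The summed level of the epithelial list was 0 in BAT, 38.4 to 20867 in SAT and 6.80 to 1188 in VAT. Striated muscle miRNAs were led by miR-133a-3p, and the summed level of their list was 1090 to 420524 in BAT, 912 to 1755 in SAT and 912 to 151385 in VAT. The part of these cell types in the member values was not tested.

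The miRNAs whose log2 levels followed a member most closely over the 9 libraries were found by Pearson's r, as a description, since the gap between BAT and WAT alone makes such values high. For miR-199a-3p they were miR-145a-3p (r = 0.975), miR-221-3p (0.970) and the myeloid miR-223-3p (0.970). For miR-199a-5p they were miR-125b-2-3p (0.991), miR-497-5p (0.983) and miR-335-3p (0.982), and for miR-199b-5p miR-181a-1-3p (0.979), miR-872-3p (0.971) and miR-130a-3p (0.968). MiR-214-5p was followed by miR-381-3p (0.982), miR-221-3p (0.962) and miR-146b-5p (0.955). MiR-214-3p had no such neighbour, and its highest values were 0.733 for miR-339-5p, 0.605 for miR-540-3p and 0.565 for miR-532-3p. By rank these neighbours were less stable, since Spearman's rho placed another set of 3 first for each member, with none in common for miR-199a-3p, miR-199a-5p and miR-214-3p and 1 in common for the other members.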

How the data were processed

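Small RNA libraries of 9 adipose samples were analysed from the table of miRNA values. Per the study's methods, the authors aligned reads to miRBase precursors and counted those matching a mature miRNA, splitting reads with more than 1 match proportionally. Counts were scaled to usable reads, and 40 was added. The deposited values are on a log2 scale. Before the log they begin at 10 rather than 40, and libraries share values at equal ranks, a feature of quantile normalization that limits how far a single library can stand apart. The aligner is not given in the sources used here, and the labels name the build mm10. Split reads make miR-199a-3p and miR-199b-3p inseparable.

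Of 1251 miRNAs, 343 exceeded the lowest value in 3 or more libraries and were tested, the 6 members among them. Each pairwise comparison was fitted on its 6 libraries, and WAT/BAT on all 9, with limma 3.58.1 in R 4.3.3 (two-sided, no block). Benjamini-Hochberg adjustment covered the 343 miRNAs, and a call is an adjusted p under 0.05. The alternatives changed the filter, scale, moderation, block and libraries, with a test without moderation among them (the study used Student's test with a fold limit). Differences between 2 miRNAs of a library were compared by exact permutation of the libraries (scipy 1.17.1). The fits were tested on simulated data. Sequences and loci came from RefSeq GRCm38.p6 and GENCODE M21. The members, lists and named miRNAs (members, shared seeds, miR-191-5p, up to 4 of a list by mean level, 3 nearest profiles) were chosen with earlier results of these data known. MiR-145a-5p was named after its values were seen.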

Additional observations from a re-analysis of the deposited data

Results flagged for a closer look

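The difference between 2 miRNAs of the same library was not the same in white and brown fat in 2 cases, by an exact permutation test of the difference itself (two-sided p = 0.0238, the smallest it allows, adjusted p = 0.0357 over 3 differences). MiR-214-3p minus miR-214-5p was -1.88 in WAT relative to BAT on the log2 scale, with all 6 WAT libraries below all 3 BAT libraries. Such changes were common, as 48.2% of the 83 pairs of arms changed in the limma fit and this one ranked 29 by size. MiR-199a-3p minus miR-214-3p was 2.70 higher in WAT than in BAT, with all 6 WAT libraries above, where the miR-199a-3p row may hold part of the reads of its sequence. This mostly repeats the change of miR-199a-3p alone, 2.68 in WAT/BAT, and has no background over other pairs of miRNAs. MiR-214-5p is low in BAT, at unlogged values of 30.0 to 48.9 beside a lowest value of 10, and with that value subtracted and 1 added the first difference was -2.21 (exact permutation p = 0.0238).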

How the results depend on the processing

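In VAT/BAT and WAT/BAT the calls of miR-199a-3p, miR-199a-5p, miR-199b-5p and miR-214-5p were kept under every alternative that tested them, and in SAT/BAT those of the 3 miR-199 profiles (highest adjusted p 0.0467). MiR-199b-5p and miR-214-5p are not among the 171 miRNAs with the highest means and had no value there. In SAT/BAT, miR-214-5p was not called without a filter (1.50, adjusted p = 0.151) or relative to miR-191-5p (1.32, adjusted p = 0.0668), and leaving out each library gave 1.32 to 1.78. In VAT/SAT, miR-199a-3p was not called without a filter (0.95), relative to miR-191-5p (1.12), with all 9 libraries in 1 fit (0.95), without moderation (0.95), with the replicate block by title number in all 9 libraries (0.95, adjusted p = 0.0593) or by source name number (0.95, adjusted p = 0.111), or without the libraries high in miR-133a-3p (0.86), and leaving out each library gave 0.85 to 1.07. The sign of the small miR-214-3p change turned in VAT/BAT without the libraries high in miR-133a-3p (0.14; each library left out, -0.29 to 0.14), in SAT/BAT relative to miR-191-5p (-0.11; each library left out, -0.0457 to 0.15), in VAT/SAT without those libraries (0.0784; each left out, -0.35 to 0.0784) and in WAT/BAT with a common median (0.0004) or without those libraries (0.10; each left out, -0.11 to 0.10). For miR-199b-5p in VAT/SAT each library left out gave -0.0269 to 0.40. With VAT or SAT alone against BAT, 3 libraries against 3 (smallest p 0.1), miR-214-3p minus miR-214-5p was -2.33 and -1.43, miR-199a-3p minus miR-214-3p 3.26 and 2.14, and miR-199a-3p minus miR-199a-5p turned to 0.0140 with VAT. With each library left out these were -2.13 to -1.75, 2.45 to 2.88 and -0.67 to -0.16. With a BAT library left out no p under 0.0714 is possible.

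The number of tested miRNAs called, 227 in VAT/BAT, 139 in SAT/BAT, 55 in VAT/SAT and 220 in WAT/BAT, moved to 128, 74 and 4 in the first 3 without a filter, to 119 in VAT/BAT and 127 in WAT/BAT among the 171 with the highest means, where fewer are tested, and in VAT/SAT to 2 relative to miR-191-5p, 30 with all 9 libraries in 1 fit and 30 with the block by title number in it, 13 without moderation, 0 with the block by source name number (105 at an unadjusted p under 0.05), 5 without the libraries high in miR-133a-3p and 0 to 49 with each library left out (104 at an unadjusted p under 0.05 without SAT 19, where limma called 0). The block by title number in the 6 libraries of VAT/SAT also gave 55. Deviations from the depot means of libraries with the same title number correlated at -0.14 to 0.27 (4 pairs). For different title numbers the range was -0.48 to 0.36 (23 pairs). By the number 1 to 3 that the source names give within each depot, same-numbered libraries correlated at -0.17 to 0.36 (9 pairs). So few pairs cannot tell whether libraries share a mouse. The study describes no pairing, and none was assumed in the main fits. Relative to miR-191-5p the median over the tested miRNAs moved by -0.17 in SAT/BAT, 0.17 in VAT/SAT and -0.09 in WAT/BAT, with the lowest value subtracted by 0.29 in VAT/BAT, 0.11 in VAT/SAT and 0.32 in WAT/BAT, and among the 171 with the highest means by 0.25 in SAT/BAT. The causes of these changes were not tested. The depth of the libraries is unknown, which limits what can be said of the low arms.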

Other observations

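Other differences within a library belong to no comparison above and were not tested. MiR-199a-5p minus miR-214-5p, the 5p arms of both hairpins in Dnm3os, was 1.65 to 2.37 in BAT, 3.06 to 4.26 in SAT and 2.75 to 3.36 in VAT on the log2 scale. MiR-199a-5p minus miR-199b-5p was 0.97 to 2.66 in BAT, 2.33 to 3.06 in SAT and 2.26 to 3.35 in VAT, so that the depots overlapped. MiR-199b-5p and miR-214-5p had exactly the same value in BAT 20 and in SAT 14.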
